A study of Mus musculus with 8 samples.

Results

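The smooth muscle contractile apparatus was followed through 10 genes of mouse embryonic fibroblasts: Myh11, Myl9, Mylk, Cnn1, Cnn2, Lmod1, Tagln, Smtn, Cald1 and Csrp1. They are 10 of the 54532 genes of the count table, matched by symbol, as contractile genes other than actins. They were chosen by their role with their levels in the 4 media already known from these same libraries. All 10 were among the 15470 genes that passed the filter on low counts. Their levels and differences in these 8 libraries are therefore a description, and no p-value is printed for a member. The calls given for members below only set a difference against the spread of these libraries. Neither those calls nor the direction the members share supports anything.

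The fibroblasts were wild type and spent 4 days in 1 of 4 media. RNA of 2 libraries per medium was sequenced. The cocktail CFAE holds CHIR99021, which inhibits the kinase GSK-3, then Forskolin, which raises cyclic AMP, and AM580, which switches on the alpha receptor for retinoic acid. Its last component is given by the labels as EPZ04777, a name they do not explain. CFAE was combined with A-83-01 and MSC2530818 (CFAE+8+MSC), with E-616452 (CFAE+6) or with A-83-01 (CFAE+8), and control cells stayed in fibroblast medium (MEF). Signalling by the type I receptor of TGF-beta is blocked by A-83-01 and by E-616452, and MSC2530818 inhibits the kinases CDK8 and CDK19. Doses are not given in the labels, and neither is whether the libraries of a medium came from separate cultures, so any p-value reflects the spread between these libraries alone, possibly a technical one. The design asks what each cocktail changed relative to fibroblast medium, what MSC2530818 added to CFAE+8, and what E-616452 in place of A-83-01 changed.

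Smooth muscle shortens when myosin heavy chains, driven by phosphorylated regulatory light chains, pull on actin filaments dressed with tropomyosin, caldesmon and calponin. The same genes are active at lower levels in fibroblasts and higher in myofibroblasts, the contractile fibroblasts of healing wounds and scars. Many of them are known targets of serum response factor and its cofactors, which bind the CArG box, and several are known to be induced by TGF-beta.

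Library totals ran from 10958430 to 11913143 counts, and mitochondrial transcripts took 1.21 to 2.21% of counts, least in MEF. All 16 fibroblast markers checked had counts in every medium. Their summed level was 19368 to 19991 CPM (counts scaled to a common library size by edgeR's TMM method) in CFAE+8+MSC, 16675 to 17229 CPM in CFAE+6, 18383 to 18441 CPM in CFAE+8 and 49326 to 51059 CPM in MEF. The markers did not move together: in CFAE+8 against MEF 11 were called lower and 5 higher, beside 31.3% and 30.8% of all genes. Col1a1 had 4058 CPM in CFAE+8 and 14726 CPM in MEF, whereas Twist1 had 994 CPM in CFAE+8 and 103 CPM in MEF, both named after their values were seen. In bulk RNA, fewer cells of a type and less RNA per cell cannot be told apart.

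Promoter windows, from 250 bases before to 50 bases after a start site, were found in RefSeq (GRCm38.p6, the mm10 build) for 8 of the 10 genes, 10 windows in all. There was none for Myh11 and Tagln, which were therefore not searched for any motif. The calponin pair and Myl9 are shown 5′ to 3′ on the strand of the gene, because Cnn1 and Cnn2 code for related proteins with very different CFAE+8 levels relative to MEF, and because Myl9 and Cnn2 were the members with an exact CArG box in the window. Capitals mark that box.
Cnn1 (chr9:22099003-22099302, + strand): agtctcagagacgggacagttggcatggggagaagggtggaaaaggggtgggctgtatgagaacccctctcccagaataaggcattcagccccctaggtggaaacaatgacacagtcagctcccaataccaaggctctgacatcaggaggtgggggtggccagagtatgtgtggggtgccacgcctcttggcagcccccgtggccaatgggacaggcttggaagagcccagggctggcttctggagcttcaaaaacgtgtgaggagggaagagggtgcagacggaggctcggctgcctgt
Cnn2 (chr10:79988350-79988649, + strand): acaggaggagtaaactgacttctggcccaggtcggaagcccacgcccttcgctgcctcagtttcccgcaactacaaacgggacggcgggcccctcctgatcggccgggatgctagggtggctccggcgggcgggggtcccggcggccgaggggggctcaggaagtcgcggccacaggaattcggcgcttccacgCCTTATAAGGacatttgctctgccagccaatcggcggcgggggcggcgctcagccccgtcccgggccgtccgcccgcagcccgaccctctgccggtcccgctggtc
Myl9 (chr2:156775214-156775513, + strand): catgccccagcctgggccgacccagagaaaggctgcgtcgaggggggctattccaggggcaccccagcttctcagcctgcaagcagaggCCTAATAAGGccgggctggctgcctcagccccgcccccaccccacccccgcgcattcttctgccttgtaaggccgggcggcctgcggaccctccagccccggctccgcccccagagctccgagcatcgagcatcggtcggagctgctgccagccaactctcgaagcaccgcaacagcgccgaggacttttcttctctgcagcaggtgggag
The CArG box in Myl9 began at -161 from the start site and that in Cnn2 at -56. It was present in 2 of the 10 windows, and 1.63% of all 32851 windows in the RefSeq table held one on either strand. TATAAA, the TATA box, stood in 1 window, of Cald1, against 13.6% of all windows. CAGAC, which SMAD proteins can bind, stood in 6 windows (49.6% of all windows). GGAATG, which TEAD factors can bind, stood in 4 (14.7%), and the E-box CANNTG in 9 (72.3%). Both strands were searched, no 2 matches overlapped, and a window without a match says nothing about sites elsewhere in the gene.

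The thick filament genes followed the media closely. Myh11 encodes the myosin heavy chain that defines differentiated smooth muscle (ENSMUSG00000018830, mm10 chromosome 16, 14194535 to 14291372). It had 137 and 139.7 CPM in the CFAE+8+MSC libraries, 27.1 and 25.4 CPM in CFAE+6, 1.79 and 1.44 CPM in CFAE+8, and 43.1 and 51.5 CPM in MEF. The 4 media did not overlap, CFAE+8+MSC stood above every other library, and the CFAE+8 values rested on 21 and 17 counts. Relative to MEF, the mean was 292% in CFAE+8+MSC, 55.5% in CFAE+6 and 3.42% in CFAE+8. Myl9, a regulatory light chain of smooth muscle myosin (ENSMUSG00000067818, chromosome 2, 156775420 to 156781658), had 239.7 and 237 CPM in CFAE+8+MSC, 131 and 130.0 CPM in CFAE+6, 41.0 and 44.2 CPM in CFAE+8, and 314 and 307 CPM in MEF. Here MEF was highest and the media again did not overlap. Mylk encodes the calmodulin-dependent kinase that phosphorylates this light chain (ENSMUSG00000022836, chromosome 16, 34745210 to 35002420). It had 65.2 and 62.4 CPM in CFAE+8+MSC, 28.0 and 30.7 CPM in CFAE+6, 23.8 and 22.8 CPM in CFAE+8, and 37.1 and 35.4 CPM in MEF. Its CFAE+8 mean was 64.4% of that in MEF, nearer to MEF than for Myh11 and Myl9, and its CFAE+8+MSC mean was 176%. The gene also carries shorter products, among them telokin, which counts per gene do not separate.

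The 2 calponin genes differed in size of response. Cnn1, the calponin typical of smooth muscle, which binds actin and slows the myosin ATPase (ENSMUSG00000001349, chromosome 9, 22099216 to 22109630), had 122 and 116 CPM in CFAE+8+MSC, 47.2 and 44.8 CPM in CFAE+6, 8.54 and 9.16 CPM in CFAE+8, and 104 and 105 CPM in MEF. Cnn2, a calponin also found in non-muscle cells (ENSMUSG00000004665, chromosome 10, 79988584 to 79996062), had 542 and 556 CPM in CFAE+8+MSC, 435 and 463 CPM in CFAE+6, 442 and 419 CPM in CFAE+8, and 753 and 775 CPM in MEF. The CFAE+6 and CFAE+8 libraries overlapped for Cnn2 and did not for Cnn1. In CFAE+8 the level was 8.45% of that in MEF for Cnn1 and 56.3% for Cnn2.

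Among actin-binding members, Lmod1 had the lowest CFAE+8 level relative to MEF. Lmod1 encodes leiomodin, which nucleates actin filaments in smooth muscle (ENSMUSG00000048096, chromosome 1, 135324807 to 135368065). It had 29.9 and 31.2 CPM in CFAE+8+MSC, 12.7 and 16.7 CPM in CFAE+6, 1.45 and 2.46 CPM in CFAE+8, and 70.1 and 70.0 CPM in MEF. That is 43.6% of the MEF mean in CFAE+8+MSC, 21% in CFAE+6 and 2.79% in CFAE+8, the last from 17 and 29 counts. Unlike Myh11, Lmod1 therefore stayed below MEF in every cocktail. Cald1 encodes caldesmon, which binds actin and tropomyosin and restrains myosin (ENSMUSG00000029761, chromosome 6, 34598500 to 34775473). It had 1067 and 1060.5 CPM in CFAE+8+MSC, 838 and 811 CPM in CFAE+6, 604 and 629 CPM in CFAE+8, and 2049 and 2093 CPM in MEF. Its media were separate but closer together, with CFAE+8 at 29.8% of MEF. Counts per gene do not separate the long smooth muscle form of caldesmon from the short form of other cells.

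Csrp1, a LIM protein that binds the actin crosslinker alpha-actinin (ENSMUSG00000026421, chromosome 1, 135720061 to 135752232), had 325 and 305 CPM in CFAE+8+MSC, 176 and 180.2 CPM in CFAE+6, 68.8 and 66.8 CPM in CFAE+8, and 364 and 371 CPM in MEF. Its order was that of Myl9, with CFAE+8+MSC at 85.8% and CFAE+8 at 18.5% of MEF. Smtn, which encodes smoothelin, a protein of actin bundles in contractile smooth muscle (ENSMUSG00000020439, chromosome 11, 3517523 to 3540612), had 50.5 and 55.0 CPM in CFAE+8+MSC, 35.6 and 39.7 CPM in CFAE+6, 32.4 and 31.1 CPM in CFAE+8, and 104 and 99.4 CPM in MEF. The gap between its CFAE+6 and CFAE+8 libraries, 3.26 CPM, was smaller than the range within CFAE+6, 4.1 CPM. Smtn is uncertain because 16.3% of its exon length lies under exons of Gm11946, on the other strand, and libraries of this kit carry no strand information.

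Tagln is known as SM22-alpha, a small calponin relative and an early marker of smooth muscle (ENSMUSG00000032085, chromosome 9, 45929619 to 45936058). It had 3.29 and 1.54 CPM in CFAE+8+MSC, 1.5 and 2.14 CPM in CFAE+6, 1.79 and 1.19 CPM in CFAE+8, and 9.98 and 11.4 CPM in MEF. The 3 cocktails overlapped and MEF lay above them. These values rest on 14 to 125 counts per library and are uncertain, since 67.9% of the exon length of Tagln lies under exons of other genes, mainly Gm48529. Gm48529 itself was at 2.00 ± 0.75 CPM in CFAE+8+MSC, 1.52 ± 0.339 CPM in CFAE+6, 1.53 ± 0.368 CPM in CFAE+8 and 6.44 ± 0.168 CPM in MEF (SD, n = 2). Pcsk7, a proprotein convertase gene that shares sequence with the Tagln transcripts, had means of 50.3, 45.7, 48.4 and 42.9 CPM in the same order of media. The sources used here do not say how reads in these shared exons were assigned, and its part in the Tagln values was not tested.

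**Figure D1:**
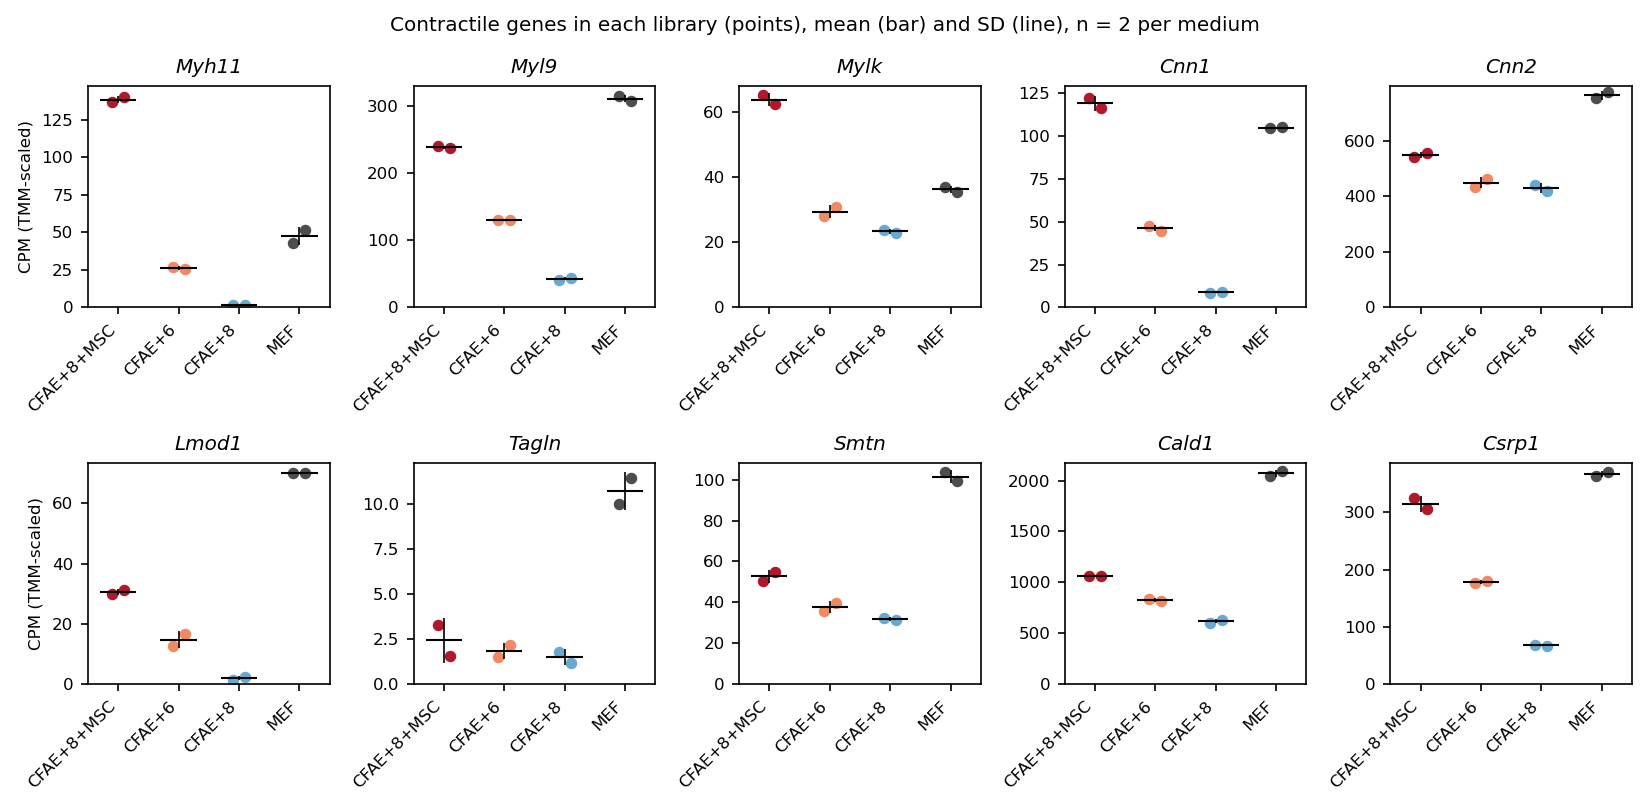
Level of each contractile gene in CPM (linear axis from 0, scaled per gene) in the 2 libraries of each medium (points), with the mean (bar) and SD (line). CFAE+8 had the lowest mean for all 10 genes; CFAE+8+MSC stood above MEF for Myh11, Mylk and Cnn1 and below it for the other 7.

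The order of the media was alike across the members. CFAE+8 had the lowest mean for 10 of 10, and CFAE+6 came next above it for 10 of 10. The highest mean was in MEF for 7 genes and in CFAE+8+MSC for 3, namely Myh11, Mylk and Cnn1. The share of all genes with such an order was not computed. The list was chosen with these levels known, so nothing is read from these counts. Neighbouring media did not differ beyond their spread, taken as a gap larger than the wider range within a medium, for Cnn2 and Smtn between CFAE+6 and CFAE+8, and for Tagln among all 3 cocktails.

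Levels between genes can be compared only per exon length, as RPKM, here CPM divided by exon length in kilobases. In MEF the highest RPKM belonged to Cnn2, at 311, followed by Myl9 at 267, Csrp1 at 188 and Cald1 at 172. Cnn1 followed at 38.3, Smtn at 23.2, Lmod1 at 17.7, Myh11 at 6.23, Tagln at 5.39 and Mylk at 3.21 RPKM. The place of Tagln is not read: 67.9% of its exon length is shared, and its level is low for a gene known to be abundant in cultured fibroblasts, so the counts may not reflect its expression. In CFAE+8 the spread widened, from 175 RPKM for Cnn2 to 0.213 RPKM for Myh11. Per length, Myh11 lay below the non-muscle heavy chain genes Myh9 and Myh10 in all media. Its mean was above that of the third, Myh14. In CFAE+8 replicate 1 both Myh11 and Myh14 had 1.79 CPM, from 21 counts each, so their order in CFAE+8 is not established. Myh11 had mean RPKM values of 18.2 in CFAE+8+MSC, 3.45 in CFAE+6, 0.213 in CFAE+8 and 6.23 in MEF. The non-muscle heavy chain gene Myh9 had 109, 82.2, 79.5 and 211 RPKM in the same order of media, and Myh10 had 149.5, 135, 129 and 63.0 RPKM. Myh14 had 0.142, 0.197, 0.17 and 0.0641 RPKM in that order. Exon length is that of all transcripts of a gene together, so RPKM understates a gene whose main transcript is short.

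**Figure D2:**
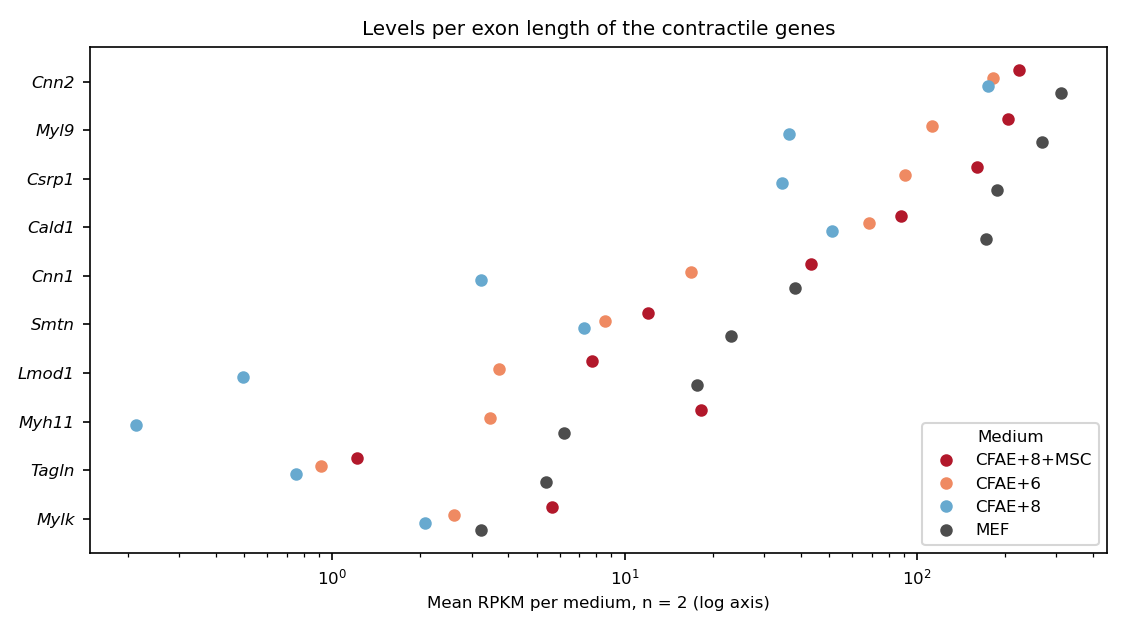
Mean RPKM of the 10 genes in each medium (log axis, n = 2 per point), ordered by the level in MEF. Cnn2 stays within 175 to 311 RPKM, whereas Myh11 runs from 0.213 RPKM in CFAE+8 to 18.2 RPKM in CFAE+8+MSC.

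Differences between media were estimated with edgeR's quasi-likelihood fit to all 8 libraries and are log2 fold changes ± SE. A gene is called where the Benjamini-Hochberg adjusted p over the 15470 genes is under 0.05. In CFAE+8 against MEF, all 10 members were called lower, in a comparison where 62% of all genes were called, 31.3% lower and 30.8% higher. The list was chosen with the levels in all media known, so nothing is read from the count of members here or in any comparison below. Log2 differences ran from -5.15 ± 0.16 for Lmod1 and -4.86 ± 0.16 for Myh11, through -3.56 ± 0.09 for Cnn1, -2.87 ± 0.06 for Myl9, -2.84 ± 0.30 for Tagln and -2.44 ± 0.06 for Csrp1. Cald1 was at -1.75 ± 0.04, Smtn at -1.68 ± 0.08, Cnn2 at -0.83 ± 0.04 and Mylk at -0.63 ± 0.10. The median over the members was -2.64, beside 0.01 over all genes tested.

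With MSC2530818 added to CFAE+8, 9 of 10 members were called higher, where 29.3% of all genes were called, 15.6% higher and 13.8% lower. No member was called lower by edgeR, also at an unadjusted p under 0.05 and by DESeq2 (0 in each). The log2 difference of Myh11 was 6.41 ± 0.14, that of Lmod1 3.96 ± 0.18 and that of Cnn1 3.75 ± 0.09. Myl9 followed with 2.48 ± 0.06, Csrp1 with 2.22 ± 0.06 and Mylk with 1.45 ± 0.09. Smaller values were found for Cald1, 0.79 ± 0.04, Smtn, 0.73 ± 0.09, and Cnn2, 0.35 ± 0.04. Tagln was not called (0.70 ± 0.38, 95% interval -0.07 to 1.48), and without CFAE+8+MSC replicate 2 its log2 difference was 1.14 and it was called. The median was 1.83 over the members and 0 over all genes.

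E-616452 in place of A-83-01 gave differences of the same direction, and this comparison shares the CFAE+8 libraries with the one before. Of 10 members 8 were called higher, where 26.6% of all genes were called, 14.3% higher and 12.3% lower. Myh11 had a log2 difference of 4.01 ± 0.18 (95% interval 3.65 to 4.37), Lmod1 2.90 ± 0.21, Cnn1 2.38 ± 0.10, Myl9 1.61 ± 0.06 and Csrp1 1.39 ± 0.06. For Cald1 it was 0.42 ± 0.04, for Mylk 0.33 ± 0.10 and for Smtn 0.25 ± 0.09. DESeq2 called 6 members, without Mylk and Smtn, and leaving out CFAE+8 replicate 2 or CFAE+6 replicate 2 also ended both of these calls. The Smtn call was further lost without CFAE+8 replicate 1, with no filter on low counts and in a fit of these 2 media alone. Cnn2 did not differ detectably between the 2 receptor inhibitors: its log2 difference was 0.06, with a 95% interval of -0.03 to 0.15. For Tagln the interval was -0.53 to 1.11. This was the 1 pair of related inhibitors in the series, and since their doses are not given, a matched dose cannot be claimed.

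**Figure D3:**
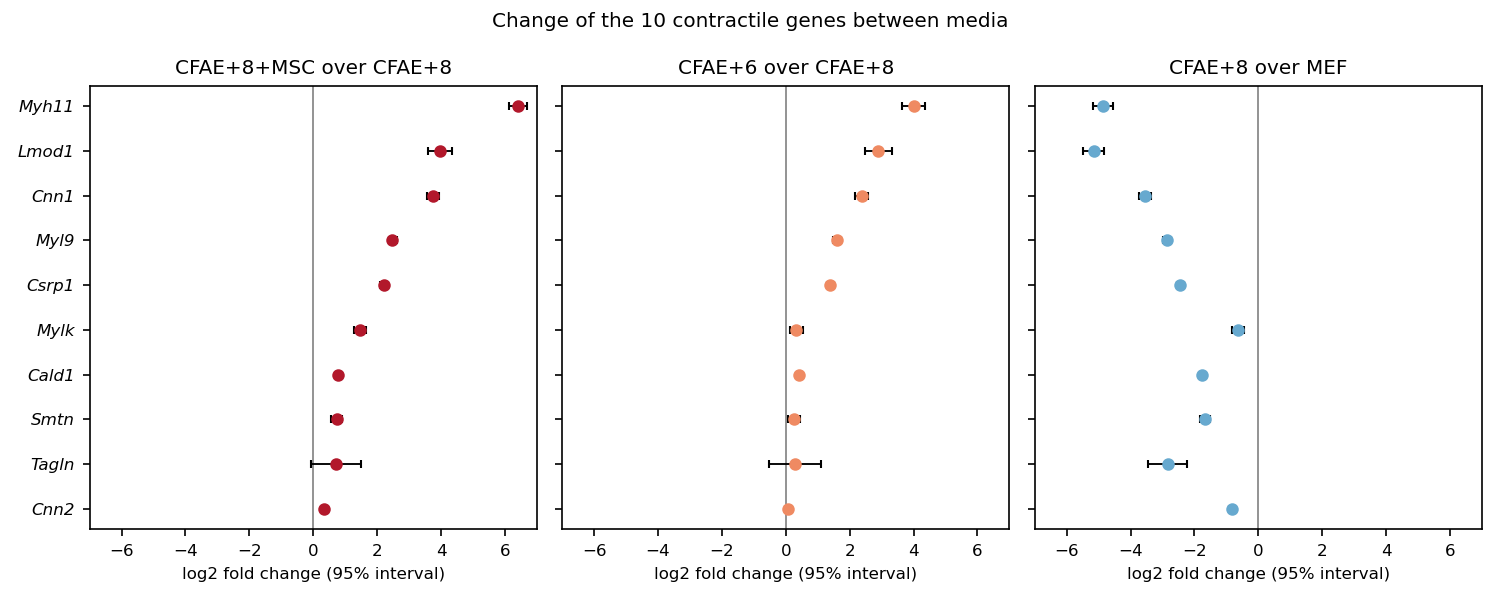
Log2 fold change (points) with 95% intervals (bars) of the 10 genes in 3 comparisons, ordered by the change with MSC2530818. Myh11, Lmod1 and Cnn1 lie farthest from 0 in all 3, while Cnn2 stays between -0.83 and 0.35.

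CFAE+8+MSC was also set directly against CFAE+6. Here 9 members were called higher, where 10.5% of all genes were called, 6.21% higher and 4.27% lower. Without CFAE+6 replicate 2, 584 genes were called higher in place of 961. The log2 difference was 2.40 ± 0.08 for Myh11, 1.37 ± 0.07 for Cnn1, 1.12 ± 0.09 for Mylk and 1.05 ± 0.12 for Lmod1. It lay between 0.29 and 0.87 for Myl9, Csrp1, Smtn, Cald1 and Cnn2, and Tagln was not called (95% interval -0.34 to 1.16).

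Against MEF, CFAE+8+MSC had 3 members called higher and 7 lower, where 64.1% of all genes were called, 31.9% higher and 32.2% lower. Myh11 was higher by 1.55 ± 0.08 and Mylk by 0.82 ± 0.09 on the log2 scale. Cnn1 differed by 0.18 ± 0.06, and that call was lost with DESeq2 and without MEF replicate 1, MEF replicate 2 or CFAE+8+MSC replicate 1. The 7 lower members ran from -0.22 ± 0.05 for Csrp1 and -0.38 ± 0.05 for Myl9 to -1.2 ± 0.10 for Lmod1 and -2.14 ± 0.28 for Tagln. In CFAE+6 against MEF all 10 were called lower, where 63.1% of all genes were called, 31.6% higher and 31.5% lower. Values ran from -0.30 ± 0.09 for Mylk to -2.55 ± 0.29 for Tagln. The Mylk call there was lost without MEF replicate 1 or CFAE+6 replicate 1.

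Other genes of the apparatus were listed by function, 100 in all, of which 93 were tested. The list and its groups below were chosen with earlier results of these data known. Their counts are therefore a description and no independent check on the members. In CFAE+8 against MEF, 66 fell and 14 rose, beside 31.3% of all genes lower and 30.8% higher. With MSC2530818, 49 rose and 12 fell against CFAE+8, beside 15.6% of all genes higher and 13.8% lower. The 12 became 6 without CFAE+8 replicate 1 and 7 without CFAE+8 replicate 2. In CFAE+6 against CFAE+8, 30 rose and 13 fell, beside 14.3% of all genes higher and 12.3% lower, and the 13 became 8 without CFAE+8 replicate 1. Median log2 changes over these 93 genes were -0.68, 0.24 and 0.08 in the 3 comparisons, beside 0.01, 0 and 0 over all genes. CFAE+8+MSC against CFAE+6 had 48 of them higher and 1 lower, beside 6.21% and 4.27% of all genes.

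Of the 4 muscle actins, 3 had the order of media of most members. Acta2, smooth muscle alpha-actin, was at 1268 ± 13.4 CPM in CFAE+8+MSC, 602 ± 6.46 CPM in CFAE+6, 64.4 ± 1.56 CPM in CFAE+8 and 2664 ± 18.7 CPM in MEF (SD, n = 2). Actg2, enteric gamma-actin, had 109, 27.3, 1.36 and 165 CPM and Acta1, skeletal alpha-actin, 43.1, 16.5, 6.04 and 60.1 CPM in the same order of media. Actc1, cardiac alpha-actin, had 4.03 ± 0.561 CPM in CFAE+8+MSC, 4.34 ± 0.0325 CPM in CFAE+6, 0.511 ± 0.363 CPM in CFAE+8 and 11.6 ± 0.5 CPM in MEF. It was named after its values were seen. Its CFAE+8+MSC libraries, at 3.64 and 4.43 CPM, overlapped those of CFAE+6, at 4.32 and 4.37 CPM. Their order is therefore not established for Actc1. Among 6 actin genes, 5 rose and 1 fell with MSC2530818, beside 15.6% of all genes higher and 13.8% lower. The cytoplasmic actins changed less: Actb rose by 0.13 ± 0.03 (edgeR adjusted p = 0.0015) and Actg1 fell by 0.13 ± 0.04 (adjusted p = 0.0074) on the log2 scale.

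Relative to CFAE+8, the other myosin genes changed less than the muscle actins in the other cocktails. In CFAE+8 against MEF, 6 of 9 fell and 1 rose, beside 31.3% of all genes lower and 30.8% higher. Of 9 tested, 3 rose and 1 fell with MSC2530818, beside 15.6% of all genes higher and 13.8% lower. In CFAE+6 against CFAE+8 edgeR called 0, beside 14.3% of all genes higher and 12.3% lower. At an unadjusted p under 0.05, 1 was higher and 1 lower there, and DESeq2 called 0. Myh9 fell by 1.41 ± 0.04 in CFAE+8 against MEF and rose by 0.46 ± 0.04 with MSC2530818. Myh10 went the other way in CFAE+8, rising by 1.03 ± 0.04 against MEF (edgeR adjusted p = 1.4e-19). Myl6, the essential light chain that pairs with both myosin types, fell by 0.89 ± 0.04 and rose by 0.26 ± 0.04 in these comparisons. Myl6b fell with MSC2530818 (log2 change -0.81 ± 0.22, adjusted p = 0.0051), while Myl4, an embryonic light chain gene, stayed at 1.19 to 2.09 CPM in the cocktails against 8.40 CPM in MEF.

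Thin filament genes other than members divided. With MSC2530818, 6 of 13 rose and 2 fell, beside 15.6% of all genes higher and 13.8% lower, with a median log2 change of 0.12. Of 4 genes for tropomyosins, which lie along actin and control access of myosin, 2 rose: Tpm1 by 0.85 ± 0.04 (edgeR adjusted p = 1.5e-16) and Tpm2 by 0.93 ± 0.05 (adjusted p = 9.9e-15). Tpm3 fell by 0.18 ± 0.06 (edgeR adjusted p = 0.016) and Tpm4 was not called (0.08 ± 0.04, adjusted p = 0.10), both named after their values were seen. Tagln2, a relative of Tagln, had 319 ± 1.67 CPM in CFAE+8+MSC, 231 ± 4.62 CPM in CFAE+6, 171 ± 1.14 CPM in CFAE+8 and 358 ± 11.7 CPM in MEF. Tmod2, which caps the slow-growing end of actin filaments, was higher in every cocktail: 122 ± 3.03 CPM in CFAE+8+MSC, 99.8 ± 5.15 CPM in CFAE+6, 69.7 ± 4.5 CPM in CFAE+8 and 9.58 ± 1.24 CPM in MEF.

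Genes of dense bodies, adhesion plaques and LIM proteins, which anchor the filaments, were mostly lower in CFAE+8 and higher with MSC2530818. Of 26 tested, 22 fell in CFAE+8 against MEF, beside 31.3% of all genes. With MSC2530818, 23 rose and 2 fell, beside 15.6% and 13.8% of all genes. In CFAE+6 against CFAE+8, 14 rose and 3 fell, beside 14.3% and 12.3% of all genes. Median log2 changes over this group were -1.09, 0.67 and 0.25. Fhl1, a LIM protein of muscle, had 108 ± 5.71 CPM in CFAE+8+MSC, 50.8 ± 2.78 CPM in CFAE+6, 8.51 ± 2.20 CPM in CFAE+8 and 204 ± 3.28 CPM in MEF. With MSC2530818, Pdlim5 rose by 1.51 ± 0.06 (edgeR adjusted p = 9.5e-18) and Actn1, an alpha-actinin, by 0.88 ± 0.04 (adjusted p = 6.5e-16). Csrp2, a LIM relative of Csrp1, differed in pattern, with 47.3 ± 0.929 CPM in CFAE+8+MSC, 52.5 ± 0.172 CPM in CFAE+6, 25.1 ± 2.82 CPM in CFAE+8 and 25.1 ± 0.00667 CPM in MEF.

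Of 20 genes that set light chain phosphorylation, 2 rose with MSC2530818, 2 fell and 16 were not called, beside 15.6% of all genes higher and 13.8% lower. In CFAE+8 against MEF, 15 of the 20 fell and 3 rose, beside 31.3% of all genes lower and 30.8% higher. Rock2 had 220 CPM in CFAE+8+MSC, 160 CPM in CFAE+6, 161 CPM in CFAE+8 and 379 CPM in MEF. Rhoa had 242, 251, 249 and 397 CPM in the same order of media. With MSC2530818, Calm3, one of the calmodulin genes, fell by 0.24 ± 0.05 (edgeR adjusted p = 0.00032). Mrvi1, a substrate of cGMP-dependent kinase in smooth muscle, had 8.63 ± 0.202 CPM in CFAE+8+MSC, 4.96 ± 0.595 CPM in CFAE+6, 1.27 ± 0.475 CPM in CFAE+8 and 17.5 ± 0.00661 CPM in MEF. Arhgef1 and Arhgef11, which code for guanine nucleotide exchange factors, fell by 0.20 ± 0.06 and 0.24 ± 0.07 in CFAE+6 against CFAE+8, and Arhgef11 is uncertain, with 12.5% of its exons shared with another gene.

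Calcium and potassium handling genes went both ways. In CFAE+8 against MEF, 11 of 19 were lower and 4 higher, beside 31.3% and 30.8% of all genes. With MSC2530818, 10 of 19 were higher and 4 lower, beside 15.6% and 13.8% of all genes. In CFAE+6 against CFAE+8, 6 were higher and 5 lower, beside 14.3% and 12.3% of all genes. Jph2, which couples membrane and store calcium channels, had 46.5 ± 0.549 CPM in CFAE+8+MSC, 33.8 ± 0.458 CPM in CFAE+6, 15.0 ± 0.67 CPM in CFAE+8 and 145 ± 6.84 CPM in MEF. Cacna1c, the pore of the L-type calcium channel, was higher in the cocktails, at 193 ± 3.92, 140.2 ± 8.08 and 127 ± 1.83 CPM, against 85.2 ± 4.45 CPM in MEF. The cation channel gene Trpc6 had 34.9 ± 0.309, 26.3 ± 2.64 and 14.3 ± 1.93 CPM in CFAE+8+MSC, CFAE+6 and CFAE+8, against 0.375 ± 0.142 CPM in MEF. Itpr3, a receptor that releases stored calcium, fell by 0.61 ± 0.08 with MSC2530818 and by 1.01 ± 0.09 in CFAE+6 against CFAE+8 (edgeR adjusted p = 1.3e-06 and 2.9e-10).

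**Figure D4:**
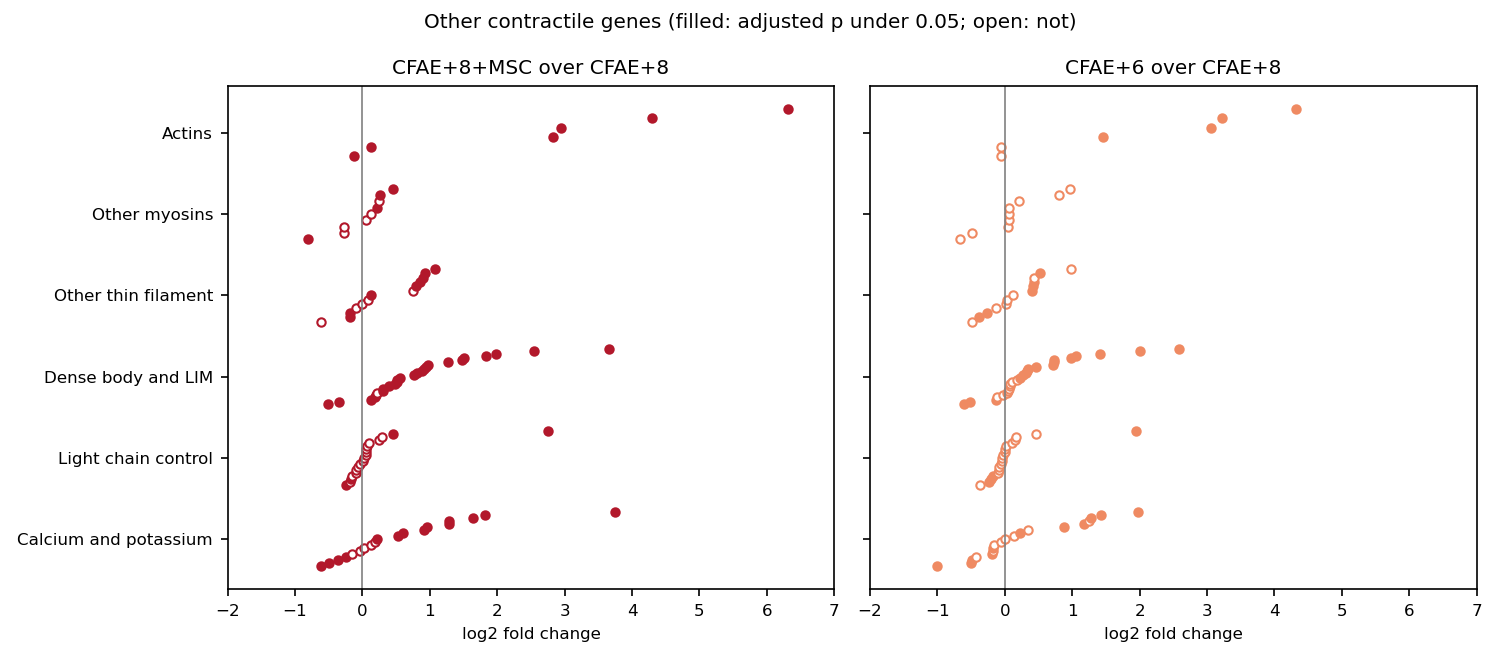
Log2 fold changes of the other contractile genes by functional group, for CFAE+8+MSC (left) and CFAE+6 (right) against CFAE+8, with called genes filled. Mylk2, with no count in CFAE+8, is not drawn; muscle actins reach 6.31 and 4.32, and the dense body group has 23 and 14 genes higher.

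The transcriptional regulators tied to these genes had smaller changes in the cocktail comparisons. Of 18 tested, 5 rose and 4 fell with MSC2530818, beside 15.6% of all genes higher and 13.8% lower, with a median log2 change of 0.04. In CFAE+6 against CFAE+8, 2 rose and 3 fell. These last counts lie near the shares of all genes, 14.3% higher and 12.3% lower, so nothing is read from them. Srf itself, not among the genes named by rule, was at 111 ± 7.60 CPM in CFAE+8+MSC, 109.8 ± 7.60 CPM in CFAE+6, 97.9 ± 4.61 CPM in CFAE+8 and 119 ± 6.98 CPM in MEF. Myocd, the smooth muscle cofactor of SRF, also named after its values were seen, was called higher in CFAE+8 than in MEF (2.12 ± 0.39, edgeR adjusted p = 2.1e-05): it had 3.68 ± 0.676, 3.12 ± 0.426 and 3.49 ± 0.257 CPM in the cocktails and 0.792 ± 0.0453 CPM in MEF. The SRF cofactor gene Mkl2 fell by 0.49 ± 0.08 with MSC2530818 and by 0.34 ± 0.07 in CFAE+6 against CFAE+8, and its relative Mkl1 by 0.27 ± 0.07 and 0.33 ± 0.07. Elk3, an SRF partner of the ETS family, fell by 0.29 ± 0.06 and 0.27 ± 0.06 in these 2 comparisons (edgeR adjusted p = 0.00051 and 0.0011). Klf4, which represses smooth muscle genes, was at 16 ± 1.14, 12.1 ± 0.24 and 11.4 ± 3.86 CPM in CFAE+8+MSC, CFAE+6 and CFAE+8, against 158 ± 5.07 CPM in MEF. Tead2 rose by 1.09 ± 0.07 and Tead4 fell by 3.77 ± 0.31 in CFAE+8 against MEF, and Prrx1, a mesenchymal homeobox gene, rose by 0.26 ± 0.04 with MSC2530818.

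Genes with the pattern most like that of a member were found as the smallest Euclidean distance between centred log2 mean CPM over the 4 media, among 11432 protein coding genes with at least 5 CPM in 1 medium. Nearest to Myh11 were Krt20 (distance 1.48), Edn1 (1.74), Actg2 (1.74), Acta2 (1.98) and Fhl1 (2.17). None of these 5 had a higher mean in CFAE+8+MSC than in MEF, as Myh11 and the members Mylk and Cnn1 did. Nearest to Cnn1 were Edn1 (0.636), Acta1 (0.817), Ppbp (0.83), Nipal4 (0.837) and Fhl1 (0.872). For Mylk they were Ldb3 (0.301), Fras1 (0.313), Zbtb20 (0.348), B3gnt5 (0.362) and Cryab (0.414), the last uncertain, with 17% of its exons shared with another gene. Cald1 had the closest matches, Lrrc17 (0.0791), Mcam (0.13), Met (0.139), Msrb3 (0.141) and Foxf1 (0.144).

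Markers of other cell types were summed for comparison. Smooth muscle and pericyte markers outside the contractile apparatus, 14 genes, summed to 486 to 496 CPM in CFAE+8+MSC, 461 to 477 CPM in CFAE+6, 340.3 to 342 CPM in CFAE+8 and 637 to 662 CPM in MEF, with Olfr78 at no count in CFAE+8+MSC. The pericyte gene Cspg4, named after its values were seen, made up 304 CPM of the MEF sum and had 6.99 to 12.4 CPM in the cocktails, so this gene sets the place of MEF as highest. With MSC2530818, 6 of 13 tested rose and 1 fell, beside 15.6% of all genes higher and 13.8% lower. Itga8, an integrin of smooth muscle, rose by 1.39 ± 0.09 (edgeR adjusted p = 1.7e-13) and the pericyte marker Rgs5 was not called (0.23 ± 0.34, adjusted p = 0.67), both named after their values were seen. Skeletal muscle markers, 22 genes, summed to 72.0 to 73.3 CPM in CFAE+8+MSC, 68.6 to 73.7 CPM in CFAE+6, 47.9 to 52.1 CPM in CFAE+8 and 55.0 to 62.4 CPM in MEF, and with Myf5 at no count in any cocktail. Also at no count were Mymx, Pax7 and Tnnc2 in CFAE+8+MSC, Tnnc2 in CFAE+6, Myf6 and Pax7 in CFAE+8, and Ckm, Myf6 and Tnnc2 in MEF. Of the 22 genes 14 were tested, and 6 rose with MSC2530818, beside 15.6% of all genes. Chrna1, named after its values were seen, had 36.4, 26.0, 27.7 and 2.85 CPM in CFAE+8+MSC, CFAE+6, CFAE+8 and MEF. This gene sets the place of MEF below CFAE+8+MSC and CFAE+6 in the sum. Against MEF, 2 of the 14 were higher and 8 lower in CFAE+8+MSC, beside 31.9% and 32.2% of all genes. Cardiac markers, 12 genes, summed to 4.58 to 19.2 CPM over all libraries, with Mybpc3 at no count in any cocktail. Myl7 had none in CFAE+6 or CFAE+8, Myh6 none in CFAE+8, Nppa none in CFAE+8 or MEF, and Myl3 none in MEF. A count of 0 over both libraries of a medium allows a mean of up to 0.128 to 0.14 CPM, for counting error only. Tnnc2, Nppa, Ckm and Olfr78 are uncertain, since 74.0%, 61.5%, 15.5% and 15.3% of their exon length overlaps other genes. For these genes a count of 0 is not read as absence.

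Macrophage markers, 12 genes, summed to 24.2 to 26.6 CPM in CFAE+8+MSC, 25.1 to 26.6 CPM in CFAE+6, 44.0 to 44.7 CPM in CFAE+8 and 202 to 204 CPM in MEF, with none at 0. In CFAE+8 against MEF, 11 of the 12 were lower and 0 higher, beside 31.3% and 30.8% of all genes. Lyz2, which made up most of the MEF sum, had 3.61, 6.92, 14.8 and 124 CPM in CFAE+8+MSC, CFAE+6, CFAE+8 and MEF. Endothelial markers, 10 genes, summed to 118 to 121 CPM, 99.7 to 106 CPM, 65.0 to 72.6 CPM and 26.0 to 27.0 CPM in the same order of media. Tie1 had no count in all media but CFAE+6, and Emcn none in CFAE+8+MSC and CFAE+6. Most of the CFAE+8+MSC sum came from Esam (58.9 CPM) and Kdr (44.6 CPM), against 1.17 and 13.9 CPM in MEF. Pecam1 stayed at 0.0475 to 0.565 CPM in all media. Of 8 tested, 3 were higher and 1 lower in CFAE+8+MSC against MEF, beside 31.9% and 32.2% of all genes. Epithelial and mesothelial markers, 10 genes, summed to 48.4 to 53.2 CPM in CFAE+8+MSC, 44.0 to 44.7 CPM in CFAE+6, 12.2 to 13.2 CPM in CFAE+8 and 143 to 148 CPM in MEF, with Cldn3 and Upk3b at no count in CFAE+8. Most of the MEF sum came from Msln, a mesothelial gene, at 101 CPM in MEF against 0.809 to 2.87 CPM in the cocktails. The keratin gene Krt18 instead had 19.7 ± 1.46 CPM in CFAE+8+MSC, 14.3 ± 1.79 CPM in CFAE+6, 5.79 ± 0.0264 CPM in CFAE+8 and 5.87 ± 0.903 CPM in MEF. Of the 8 genes tested in this list, 7 rose with MSC2530818 against CFAE+8, beside 15.6% of all genes. In CFAE+8+MSC against MEF, 3 were higher and 2 lower, beside 31.9% and 32.2% of all genes. Lyz2, Esam, Kdr, Pecam1, Msln and Krt18 were named after their values were seen. The part of these marker lists in the contractile gene differences was not tested.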

How the data were processed

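The authors deposited raw counts per gene, 1 column per library, with exon lengths. Per the submitters' processing notes, featureCounts of Subread, DESeq2 and mm10 were used; the sources used here name no aligner, annotation release or strand setting. Per the labels' protocols, the library kit was NEBNext Ultra. Exon lengths and overlaps were computed from GENCODE M21, which holds 54495 of the 54532 gene IDs.

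The members and the gene lists were chosen with earlier results of these data known. Counts were filtered with filterByExpr (15470 of 28024 genes with any count kept), scaled by TMM and tested with edgeR 4.0.16 (R 4.3.3), with 1 mean per medium and 4 residual degrees of freedom. P-values were Benjamini-Hochberg adjusted over all genes tested. Comparing 2 libraries with 2, an exact permutation test cannot go below p = 0.333 and was not used. Intervals and floors cover counting error or the spread of these libraries only. The script was tested on simulated data.

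All members were described. Of each list of other contractile genes and regulators, up to 3 genes with at least 5 CPM were named per comparison. They had the smallest adjusted p in each of 3 comparisons. Added were the 5 genes outside the members nearest in pattern to each of Myh11, Cnn1, Mylk and Cald1. Some genes that this rule names are not reported here. Genes overlapping others over more than 10% of their exon length are called uncertain. Alternatives were DESeq2 1.42.0, other scalings and filters, a fold threshold of 1.2, single libraries left out and a replicate block.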

Additional observations from a re-analysis of the deposited data

How the results depend on the processing

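Every member kept its direction in each called comparison under the alternatives run; only Tagln, not called in CFAE+8+MSC over CFAE+6, changed sign there, to -0.24, without CFAE+8+MSC replicate 1. Of the alternative values of single members, 935 stayed on their side of the threshold, 24 lost the call and 1 (Tagln) gained it. The members called lay within 1.5 times of the reported count under every alternative. Against a 1.2-fold change, CFAE+8+MSC over CFAE+8 had 1294 genes higher and 731 lower, with 3 other contractile genes lower. CFAE+6 over CFAE+8 then had 1085 and 569, with 6 lower, and CFAE+8+MSC over CFAE+6 190 and 89, with 21 other contractile genes higher and 0 lower. DESeq2 called 1300, 1201 and 342 genes lower in these comparisons. With 1 library left out, genes called lower ranged from 1364 to 2260, from 1184 to 1897 and from 349 to 598, and genes higher in CFAE+8+MSC over CFAE+6 from 584 to 933. Other contractile genes called lower then ranged from 6 to 13, from 8 to 13 and from 0 to 2. A medium left with 1 library is assumed to vary like the others. The test against a fold and the fits with fewer libraries demand more by construction; the cause of the DESeq2 difference was not tested. Deviations of same-numbered libraries correlated weakly, from -0.045 to 0.0963 over 11304 genes, most for CFAE+8+MSC with CFAE+6. Weak correlations cannot exclude a pairing by culture or batch, and the main fit used none. With a replicate block, CFAE+8+MSC over CFAE+8 had 2405 genes higher and 2126 lower, and 9 members higher. Counts were few for Tagln in all media and for Myh11 and Lmod1 in CFAE+8. Those of Tagln are also uncertain because of its shared exons.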
